A study of Arabidopsis thaliana with 18 samples.

Results

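The 10 genes described here are dehydrins and cold- and drought-regulated COR genes of Arabidopsis thaliana, taken by locus from the 32744 genes of the count files. They are RD29A (AT5G52310), LTI65 (AT5G52300, also called RD29B), RAB18 (AT5G66400), COR15A (AT2G42540), COR15B (AT2G42530), KIN1 (AT5G15960), COR6.6 (AT5G15970), COR47 (AT1G20440), ERD10 (AT1G20450) and LTI30 (AT3G50970). All 10 passed the filter on low counts, as did 18358 genes in all. The choice of genes used no measured value, but it was made with earlier results of these data known.

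The libraries, of the QuantSeq kind that reads the 3' end of polyadenylated transcripts, came from rosettes of wild type (WT) and era1 mutant Arabidopsis. Plants of both genotypes stood in potting soil and received 0, 2 or 10 mM nitrate. The labels describe era1 as a knock-out made by T-DNA insertion, without naming an allele or the number of lines, and place all plants at Boyes stage 5.10. Each of the 6 groups held 3 libraries, 18 in all, and no ecotype is named in the labels. The ERA1 protein is the beta subunit of the enzyme that farnesylates proteins, and the study's title asks after this modification under nitrogen starvation. The 3 replicates are described as biological, but neither plants nor pools are named as their source, so each p-value reflects the spread among libraries and no more.

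Dehydrins and COR proteins are small, very hydrophilic proteins that plant cells accumulate when they lose water through cold, drought or salt, and they are known to protect membranes and enzymes. Their genes are textbook outputs of a pair of routes. In the cold route, CBF factors bind the C-repeat or DRE element. In the abscisic acid route, SnRK2 kinases activate ABF factors, which bind the ABRE element. RAB18, COR47, ERD10 and LTI30 are dehydrins. COR15A and COR15B are chloroplast stroma proteins, KIN1 and COR6.6 are very small hydrophilic proteins, and RD29A and LTI65 are a related pair of larger ones. The era1 mutant takes its name from an enhanced response to abscisic acid.

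The promoter windows below are shown because these 5 genes differ in which of the elements lie near their start. They are examples of windows that hold these elements. COR15B, KIN1, COR6.6, COR47 and ERD10 held no C-repeat/DRE core in the same window, but each held it in the longer window described below. Each window runs from 250 bases before to 50 bases after the gene start in RefSeq (TAIR10.1, where the submitters' processing notes name TAIR10), 5′ to 3′ on the gene's strand. Capitals mark matches on either strand of the C-repeat/DRE core (CCGAC), the ABRE core (ACGTG), the evening element (AAAATATCT), the CCA1-binding site (AAAAATCT) and the G-box (CACGTG), which holds an ABRE core on each strand.
RD29A (chr5:21240467-21240766, plus strand): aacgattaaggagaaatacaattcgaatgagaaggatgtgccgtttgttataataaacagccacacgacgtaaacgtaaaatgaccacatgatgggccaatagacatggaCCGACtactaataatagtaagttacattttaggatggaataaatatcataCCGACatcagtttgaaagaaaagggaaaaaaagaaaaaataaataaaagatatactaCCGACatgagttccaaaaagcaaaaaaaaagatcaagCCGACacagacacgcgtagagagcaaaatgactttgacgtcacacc
LTI30 (chr3:18940393-18940692, plus strand): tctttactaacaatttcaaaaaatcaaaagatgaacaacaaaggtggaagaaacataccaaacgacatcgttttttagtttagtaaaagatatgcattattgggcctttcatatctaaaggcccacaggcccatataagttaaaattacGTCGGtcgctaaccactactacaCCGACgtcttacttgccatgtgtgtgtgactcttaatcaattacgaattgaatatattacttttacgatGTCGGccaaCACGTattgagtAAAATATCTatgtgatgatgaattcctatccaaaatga
COR15A (chr2:17712281-17712580, minus strand): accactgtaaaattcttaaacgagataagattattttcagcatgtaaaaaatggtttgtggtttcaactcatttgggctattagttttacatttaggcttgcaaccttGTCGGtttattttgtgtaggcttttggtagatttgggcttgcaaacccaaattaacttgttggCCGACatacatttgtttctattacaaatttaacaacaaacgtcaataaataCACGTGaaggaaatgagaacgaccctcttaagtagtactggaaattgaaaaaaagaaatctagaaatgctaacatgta
LTI65 (chr5:21236771-21237070, plus strand): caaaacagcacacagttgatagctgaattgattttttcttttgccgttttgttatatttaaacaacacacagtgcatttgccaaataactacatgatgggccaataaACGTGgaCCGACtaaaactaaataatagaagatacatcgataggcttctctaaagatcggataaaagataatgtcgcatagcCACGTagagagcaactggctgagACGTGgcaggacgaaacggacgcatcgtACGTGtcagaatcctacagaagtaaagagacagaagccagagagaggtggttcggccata
RAB18 (chr5:26519398-26519697, minus strand): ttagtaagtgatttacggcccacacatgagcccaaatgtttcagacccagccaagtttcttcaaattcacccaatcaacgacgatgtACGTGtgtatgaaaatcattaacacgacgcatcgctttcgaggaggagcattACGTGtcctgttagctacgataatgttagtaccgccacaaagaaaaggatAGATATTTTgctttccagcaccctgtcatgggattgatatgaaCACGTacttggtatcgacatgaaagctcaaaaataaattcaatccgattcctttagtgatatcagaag
RD29A held the C-repeat/DRE core 4 times and no ABRE core in this window, whereas LTI65 held the ABRE core 4 times and the C-repeat/DRE core 1 time. In the longer window RD29A held 1 ABRE core, which lay past the end of this window, 143 bases before the start codon. LTI30 held the C-repeat/DRE core 3 times, the ABRE core 1 time and the evening element 1 time. COR15A held the C-repeat/DRE core 2 times and the G-box 1 time. RAB18 held the ABRE core 3 times and the evening element 1 time, with no C-repeat/DRE core.

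Over all 10 genes, 4 windows held the C-repeat/DRE core, against 15% of the 27443 windows of protein-coding genes, and 6 held the ABRE core, against 26.7%. The evening element lay in 2, against 2.82% of all windows, the G-box in 2, against 7.68%, and the CCA1-binding site in 0, against 7.88%. In the 1000 bases before the start codon, a window chosen after the first had been read, all 10 genes held both the C-repeat/DRE core (39.4% of all genes) and the ABRE core (54.2%). There the evening element was found in 6 of 10 genes (7.26% of all genes). The longer window includes the bases between the gene start and the start codon, and some matches, as in RD29A, KIN1 and COR6.6, lay there. A match is a run of letters and not a measured binding site.

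**Figure D1:**
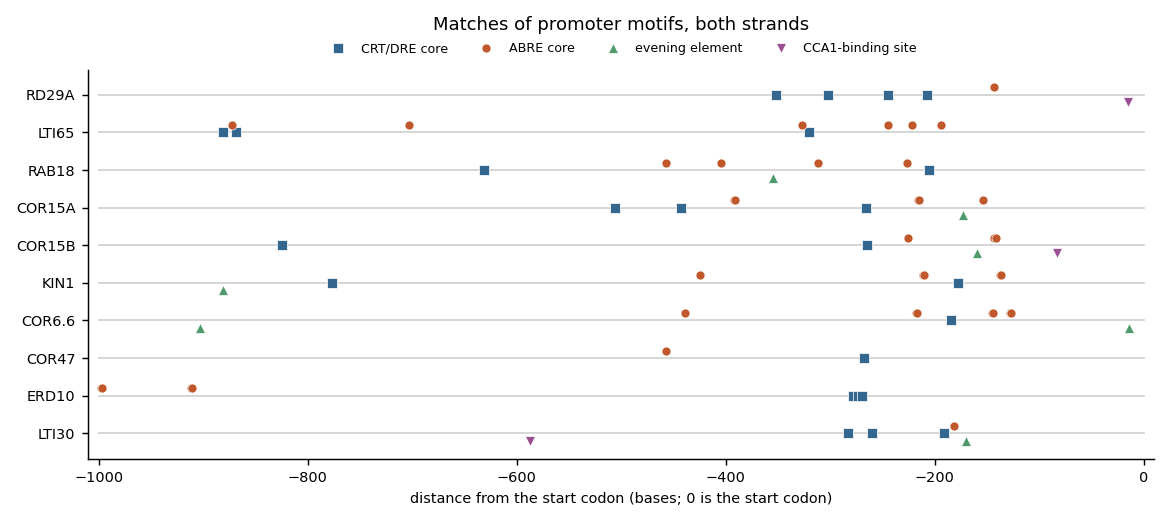
Matches of 4 motifs in the 1000 bases before the start codon of the 10 genes, by distance from the start codon in bases, both strands together. Every gene holds at least 1 C-repeat/DRE core and at least 1 ABRE core, and the evening element is found in 6 of 10.

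The libraries held 4748044 to 6306900 gene counts, of which the 10 genes took 0.159% to 0.516%. ERA1 (AT5G40280) lay at 8.69 to 11.8 CPM in the 9 WT libraries and at 1.06 to 2.73 CPM in the 9 era1 libraries. The locus printed in the genotype label, AT5G66470, lay at 40.9 ± 2.95 CPM in era1 and 44.5 ± 2.2 CPM in WT at 10 mM (SD, n = 3 each). At 0 mM this locus was lower in era1 by the test described below, with a log2 fold change of -0.69. It was also lower over the mean of the 3 doses (-0.36), but did not pass at 10 or 2 mM. Summed rosette leaf markers (RBCS1A, LHCB1.3, RCA and CA1) lay at 6320 to 14222 CPM, against 22.3 to 79.1 for 5 root markers, 0.357 to 5.94 for 3 flower markers and 0 to 0.964 for 6 seed markers, of which CRU3 was at 0 throughout. The 2 mM libraries stood apart in clock genes: LHY was at 24.8 to 37.2 CPM there and at 389 to 753 CPM in the other 12 libraries. Reads that did not align uniquely made up 2.15% in WT and 2.52% in era1 at 10 mM, and 4.72% to 4.97% in the groups at 2 and 0 mM. The part of the clock genes and of these reads in the results below was not tested.

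Levels are given as CPM, counts scaled by TMM and given relative to the library's total, and differences as log2 fold changes ± SE, each with its FDR, the false discovery rate from edgeR's quasi-likelihood test, for which the threshold was 0.05. A 3' tag count does not grow with transcript length, so levels are not scaled by it. In whole rosettes, fewer cells expressing a gene and less RNA per cell cannot be told apart. Comparisons that use the same group share its libraries.

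The summed level of the 10 genes was highest at 2 mM and lowest at 0 mM in both genotypes. In WT it was 3193 ± 141 CPM at 10 mM, 4709 ± 489 CPM at 2 mM and 2504 ± 117 CPM at 0 mM (SD, n = 3 each). In era1 it was 2932 ± 160, 4995 ± 162 and 1603 ± 182 CPM. COR6.6 alone gave 38.2% to 48.9% of these sums, so the sums weigh the abundant genes most. Of the 10 genes, 8 had their lowest mean in era1 at 0 mM and 5 their highest in era1 at 2 mM. The share of all genes with these extremes was not determined, so the counts cannot be called particular to the 10 genes. The summed leaf markers were also lowest in era1 at 0 mM, at 6320 to 7259 CPM against 13059 to 14222 in WT at 0 mM, and their part in the result was not tested.

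**Figure D2:**
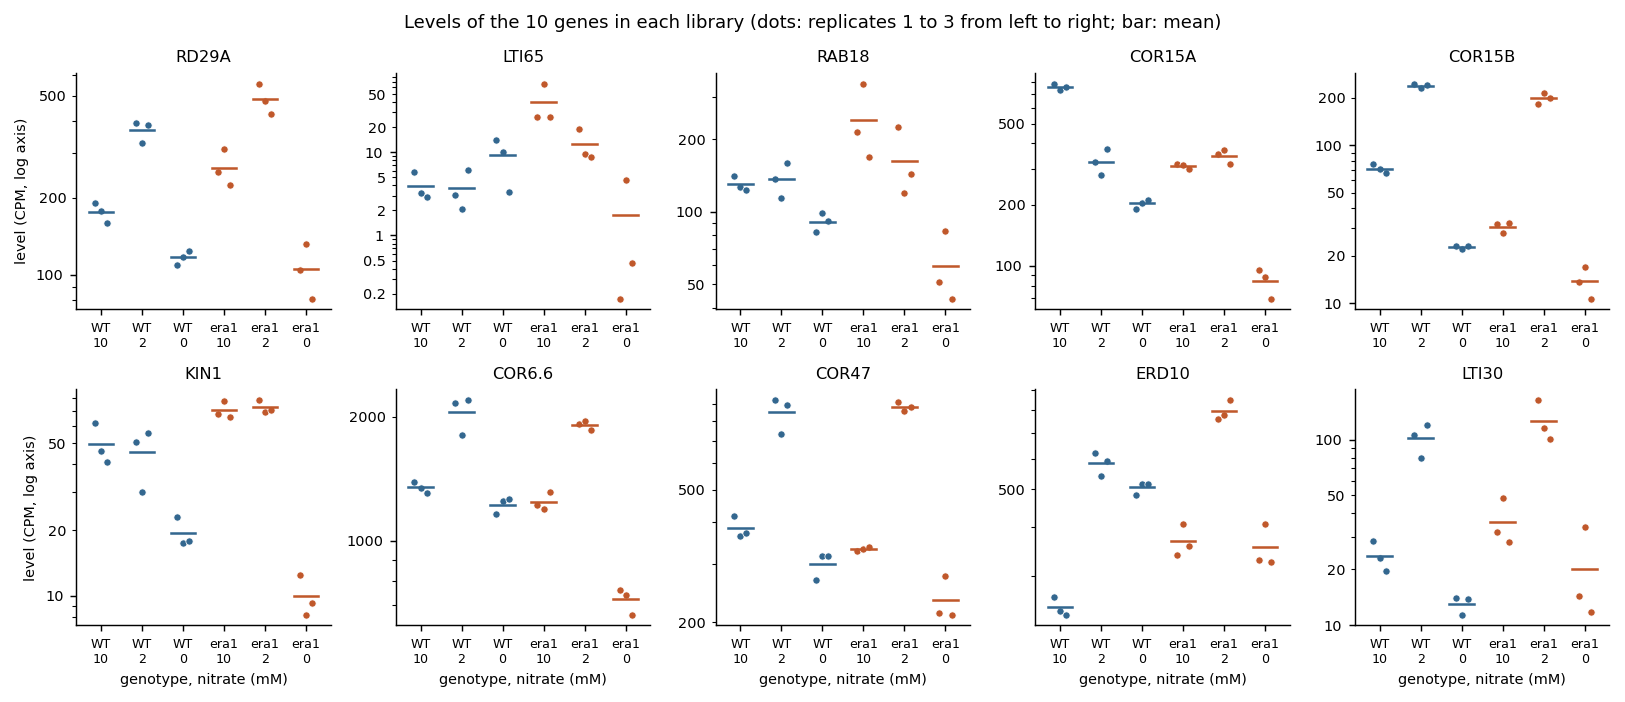
Level of each of the 10 genes in each library (CPM, log axis) for WT (blue) and era1 (orange) at 10, 2 and 0 mM nitrate; dots are libraries and bars are means of 3. Most genes peak at 2 mM and 8 of 10 have their lowest mean in era1 at 0 mM, while COR15A is highest in WT at 10 mM and LTI65 in era1 at 10 mM. The share of all genes with their lowest mean in era1 at 0 mM was not determined.

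At 2 against 10 mM nitrate, RD29A, COR15B, COR6.6, COR47, ERD10 and LTI30 rose in both genotypes. In WT these were the 6 of 10 genes that rose, against 28.8% of all genes tested, and 1, COR15A, fell, against 28.3%. The median log2 fold change was 0.83 over the 10 genes and 0.01 over all genes. In era1 the same 6 genes rose (25.5% of all genes) and 2, LTI65 and RAB18, fell (26.5%), with a median of 0.75 against -0.03. Leaving out 1 of era1 10 mM replicate 2, era1 2 mM replicate 2 or era1 2 mM replicate 3 left LTI65 as the 1 gene that fell.

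At 0 against 10 mM, most genes fell in each genotype. In WT 6 of 10 fell, against 26.7% of all genes, namely RD29A, COR15A, COR15B, KIN1, COR47 and LTI30. In WT 1 gene, ERD10, rose, against 26.9%. The median was -0.56 over the 10 genes and 0.01 over all genes. In era1 9 of 10 fell (28%) and 0 rose (27.5%), with a median of -1.23 against 0.00, and ERD10 was the gene that did not pass. RAB18 in WT did not pass here (-0.52 ± 0.23, FDR = 0.055), but it did in 10 of its alternatives, as lower.

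At 0 against 2 mM, 9 of 10 genes fell in WT, against 22.1% of all genes, and 0 rose, against 20.3%. LTI65 was the exception, at 1.3 ± 0.63 (FDR = 0.0992). Without WT 0 mM replicate 3, LTI65 also passed in WT, as higher, both here and at 0 against 10 mM. In era1 all 10 genes fell (26%) and 0 rose (23.7%), from -1.16 for ERD10 to -3.85 for COR15B on the log2 scale. The ranges of all 10 genes in era1 were apart between 0 and 2 mM, but the share of all genes with ranges apart was not determined.

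**Figure D3:**
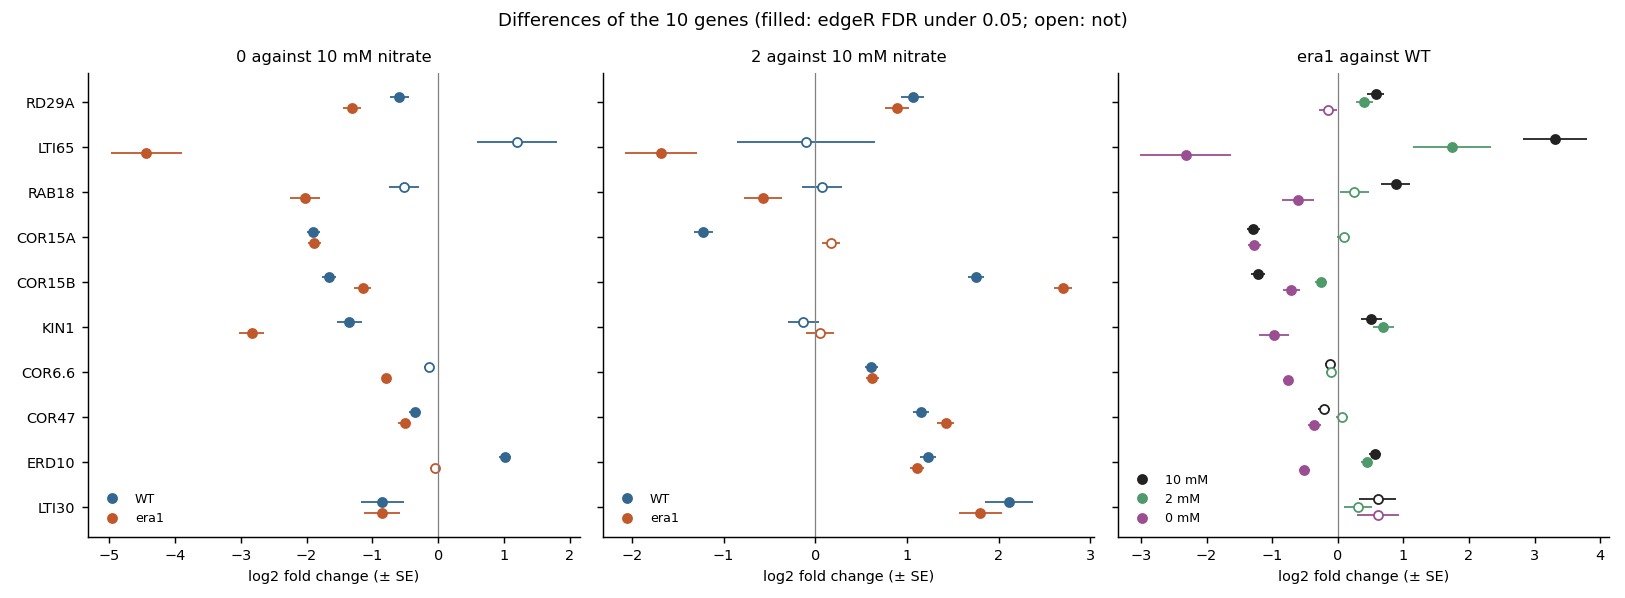
Log2 fold changes ± SE of the 10 genes at 0 against 10 mM and at 2 against 10 mM in WT and era1, and in era1 against WT at each nitrate dose (filled symbols, edgeR FDR under 0.05). At 0 mM the era1 symbols of LTI65, RAB18, KIN1 and ERD10 lie well to the left of WT, and at 2 mM COR15A is below 0 in WT and close to it in era1.

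Between genotypes, LTI65, RAB18, KIN1 and ERD10 had calls in both directions over the doses, while COR15B was lower in era1 at all 3. At 10 mM, 5 of 10 genes were higher in era1 (15.4% of all genes) and 2 lower (14.3%): RD29A, LTI65, RAB18, KIN1 and ERD10 were the higher, COR15A and COR15B the lower. At 2 mM, 4 were higher (10.9%) and 1 lower (11.1%). The 4 became 2 without WT 2 mM replicate 2 or era1 2 mM replicate 1, and the 1 lower, COR15B, became 0 without WT 2 mM replicate 1 or 3 or era1 2 mM replicate 1 or 3. At 0 mM, 0 were higher (24.5%) and 8 lower (24.6%), leaving RD29A and LTI30 outside the call, of which LTI30 passed as higher without era1 0 mM replicate 3. Averaged over doses, 3 were higher (23.8%) and 4 lower (23.3%), with a median of 0.12. The 3 were RD29A (0.28 ± 0.08), ERD10 (0.17 ± 0.05) and LTI30 (0.51 ± 0.16), of which LTI30 was lost without era1 0 mM replicate 2 (0.31, FDR = 0.062). Without replicate 2 of era1 at both 0 and 10 mM, RD29A was the 1 gene higher.

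The test of the difference between the genotypes' responses passed for 7 of 10 genes at 0 against 10 mM. Of these, 6 were lower in era1 (19.3% of all genes) and 1, COR15B, higher (15.6%). At 0 against 2 mM, 8 were lower in era1 (13.5%) and 0 higher (9.58%). At 2 against 10 mM, 2 were higher, COR15A and COR15B (7.7%), and 0 lower (8.09%). The 2 higher and 0 lower there stood beside 1 lower, RAB18, when era1 2 mM replicate 1 was left out. The 1 higher at 0 against 10 mM became 0 without WT 0 mM replicate 2, WT 10 mM replicate 1, era1 0 mM replicate 2 or era1 10 mM replicate 2. Without WT 0 mM replicate 2, WT 2 mM replicate 2, era1 0 mM replicate 1 or era1 0 mM replicate 3, the 8 lower at 0 against 2 mM became 5. Each count of 0 given here for the 10 genes was also 0 in DESeq2. At an unadjusted p under 0.05, edgeR made 1 call each where it gave 0 higher at 0 against 2 mM in WT (LTI65) and 0 lower by interaction at 2 against 10 mM (RAB18), and 0 calls in place of the other zeros.

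LTI65, a hydrophilic protein gene best known as an abscisic acid output, had the widest span, 22.4-fold between its highest and lowest group means. In WT at 10 mM it lay at 5.72, 3.21 and 2.91 CPM, and in era1 at 10 mM at 26.3, 66.0 and 26.4 CPM. These ranges are apart, and era1 was higher by 3.31 ± 0.49 (FDR = 1.5e-05). At 0 mM the WT libraries lay at 14.2, 9.99 and 3.33 CPM and the era1 libraries at 0.175, 4.66 and 0.474 CPM, which rest on 1, 29 and 3 counts. The order was thus the other way round at 0 mM, with overlapping ranges and a fold change of -2.32 ± 0.69 (FDR = 0.00643). At 2 mM the levels were 3.05, 2.06 and 6.04 CPM in WT and 19.1, 9.46 and 8.71 CPM in era1. These ranges are apart, but the call (1.74 ± 0.59, FDR = 0.0341) was lost in DESeq2 (adjusted p = 0.16) and without WT 2 mM replicate 1 or 2 or era1 2 mM replicate 1 (FDR 0.1 to 0.19).

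The fall of LTI65 from 10 to 0 mM in era1 was -4.44 ± 0.54 (FDR = 1.6e-07), where WT had 1.20 ± 0.61 (FDR = 0.103). The difference between these responses was -5.63 ± 0.84 (FDR = 1.2e-05), and at 0 against 2 mM it was -4.06 ± 0.90 (FDR = 0.00162). Replicate 2 of era1 held most of the spread: it was 14.4 times the mean of the other libraries at 0 mM and 2.50 times at 10 mM. Without era1 0 mM replicate 2, the fall in era1 became -6.80, that against 2 mM -5.12, the difference from WT at 0 mM -4.68 and the interaction at 0 against 2 mM -6.42. Without WT 0 mM replicate 1 the difference from WT at 0 mM was -1.86 (FDR = 0.056). The fall of LTI65 from 10 to 2 mM in era1 was -1.68 ± 0.39 (FDR = 0.00073), or -1.09 without era1 10 mM replicate 2, and DESeq2 did not call it (adjusted p = 0.094).

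RAB18, a dehydrin gene named for its response to abscisic acid, also fell in era1 from 10 to 0 mM. In era1 it went from 215, 339 and 168 CPM at 10 mM to 51.3, 83.2 and 43.6 CPM at 0 mM, and in WT from 141, 127 and 123 CPM to 82.7, 98.7 and 91.1 CPM. Both pairs of groups are apart. The fall in era1 was -2.02 ± 0.23 (FDR = 5.3e-08), against -0.52 ± 0.23 in WT (FDR = 0.055), with a difference of -1.50 ± 0.32 (FDR = 0.00072). At 10 mM era1 was higher by 0.88 ± 0.22 (FDR = 0.00312), or by 0.55 without era1 10 mM replicate 2.

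At 2 mM RAB18 lay at 137, 114 and 160 CPM in WT, which overlap the 224, 119 and 144 CPM of era1. In era1 its call between 2 and 10 mM (-0.57 ± 0.21, FDR = 0.0278) was lost in DESeq2 (adjusted p = 0.14) and without era1 10 mM replicate 2 (-0.24) or era1 2 mM replicate 2 or 3, and was -0.87 without era1 2 mM replicate 1. In WT its call between 0 and 2 mM (-0.59 ± 0.23, FDR = 0.0369) was lost in DESeq2 (-0.58, adjusted p = 0.15) and without any 1 of the WT 0 mM libraries, WT 2 mM replicate 1 or 3 or era1 0 mM replicate 1 (FDR 0.053 to 0.16), with values from -0.70 to -0.46 over all libraries left out in turn. The fall of RAB18 from 2 to 0 mM in era1 (-1.45 ± 0.23) passed with any 1 library left out.

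At 0 mM RAB18 ranges of the genotypes just overlapped, and era1 was lower (-0.61 ± 0.24, FDR = 0.0339), a call that DESeq2 did not make (adjusted p = 0.097). It was also lost without WT 0 mM replicate 2 or 3 or era1 0 mM replicate 1 or 3 (FDR 0.06 to 0.17), and the value was -0.94 without era1 0 mM replicate 2.

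RD29A, the gene whose promoter served to define the DRE, was highest at 2 mM in both genotypes. In WT it lay at 190, 178 and 159 CPM at 10 mM, 390, 327 and 384 CPM at 2 mM and 109, 117 and 124 CPM at 0 mM. In era1 it lay at 253, 309 and 224 CPM, 556, 475 and 423 CPM, and 104, 132 and 80.8 CPM. No doses overlap within a genotype, and the genotypes overlap at 0 mM. The rise from 10 to 2 mM was 1.06 ± 0.13 (FDR = 2.2e-07) in WT and 0.89 ± 0.13 (FDR = 2.4e-06) in era1.

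At 0 against 10 mM RD29A fell by 0.59 in WT and by 1.31 in era1 on the log2 scale (-0.59 ± 0.14, FDR = 0.00078; -1.31 ± 0.13, FDR = 1.1e-08), and these differed by -0.72 ± 0.19 (FDR = 0.00471). Its era1 excess was 0.58 ± 0.13 at 10 mM (FDR = 0.00179) and 0.40 ± 0.13 at 2 mM (FDR = 0.024). The latter was lost without WT 2 mM replicate 2 or era1 2 mM replicate 1. RD29A lies 1185 bases from LTI65 on the same strand of chromosome 5, yet there were 47.8 ± 12.6 RD29A counts per LTI65 count in WT at 10 mM and 7.59 ± 2.58 in era1 at 10 mM (SD, n = 3 each), with ranges apart. The ratios were 117 ± 48.7 and 42.6 ± 11.8 at 2 mM. At 0 mM they went the other way, at 18.9 ± 16.0 in WT and 263 ± 293 in era1, with overlapping ranges and few LTI65 counts.

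COR15A and COR15B, which encode related stroma proteins that stabilise chloroplast membranes on freezing, lie 7 bases apart on chromosome 2 and moved in opposite directions at 2 mM in WT. COR15A lay at 784, 733 and 761 CPM in WT at 10 mM, 324, 279 and 375 CPM at 2 mM and 191, 205 and 212 CPM at 0 mM. COR15B lay at 76.2, 70.4 and 67.0 CPM, 245, 230 and 242 CPM, and 22.9, 21.9 and 22.9 CPM. The 3 doses are apart for both genes. From 10 to 2 mM COR15A fell by 1.22 on the log2 scale (-1.22 ± 0.10, FDR = 8.9e-11) while COR15B rose by 1.75 ± 0.09 (FDR = 6.1e-14).

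In era1 COR15A lay at 317, 314 and 298 CPM at 10 mM, 355, 373 and 316 CPM at 2 mM and 95.1, 88.0 and 69.2 CPM at 0 mM. Its level in era1 at 10 mM was thus below every WT library at 10 mM (-1.29 ± 0.10, FDR = 3.7e-10), and it was again lower at 0 mM (-1.27 ± 0.10, FDR = 2.6e-10). At 2 mM the genotypes overlapped, at 0.09 ± 0.10 (FDR = 0.548). COR15A did not pass between 2 and 10 mM in era1, at 0.17 ± 0.10 (FDR = 0.147), and the difference from the WT response was 1.39 ± 0.14 (FDR = 1.3e-07). Its fall at 0 against 10 mM was -1.90 ± 0.10 in WT and -1.88 ± 0.10 in era1, and the test of their difference did not pass.

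COR15B in era1 lay at 31.7, 28.0 and 32.0 CPM at 10 mM, 182, 215 and 200 CPM at 2 mM and 13.7, 16.9 and 10.7 CPM at 0 mM. It was lower than in WT at 10 mM (-1.22 ± 0.11, FDR = 4.2e-09) and at 0 mM (-0.71 ± 0.13, FDR = 8.7e-05), with ranges apart at both doses. Its rise from 10 to 2 mM was larger in era1, at 2.70 ± 0.10, than in WT, by 0.96 ± 0.14 (FDR = 2.4e-05). At 2 mM the genotypes differed by -0.26 ± 0.09 (FDR = 0.0288), a call lost without WT 2 mM replicate 1 or 3 or era1 2 mM replicate 1 or 3.

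There were 10.7 ± 0.58 COR15A counts per COR15B count at 10 mM in WT, 1.36 ± 0.175 at 2 mM and 8.99 ± 0.564 at 0 mM (SD, n = 3 each). In era1 the ratios were 10.2 ± 0.959, 1.76 ± 0.19 and 6.21 ± 0.894. The 2 mM libraries of both genotypes are apart from all others. COR15B overlaps AT2G42520 on the opposite strand by 468 bases at its 3' end, and the strand setting of the counting is not given in the sources used here, so its counts are uncertain. AT2G42520 lay at 30.3 ± 0.885, 56.0 ± 6.14 and 33.6 ± 2.12 CPM at 10, 2 and 0 mM in WT, and in era1 at 43.2 ± 4.41, 54.9 ± 3.73 and 34.7 ± 2.17 CPM. AT2G42520 was higher in era1 at 10 mM, where COR15B was lower. Both genes had their highest mean at 2 mM in each genotype. The part of AT2G42520 reads in the COR15B counts was not tested.

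**Figure D4:**
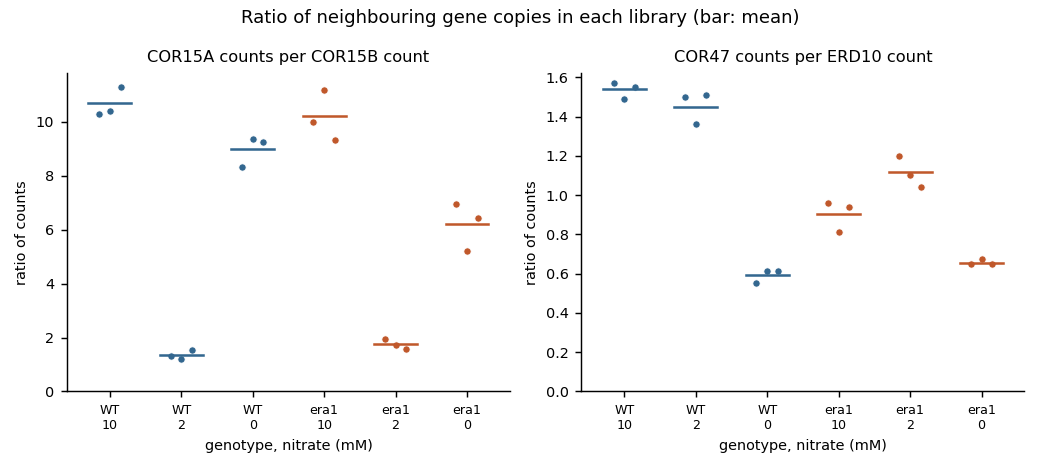
Ratio of counts of COR15A to COR15B and of COR47 to ERD10 in each library, by genotype and nitrate dose; dots are libraries and bars are means of 3. The COR15 ratio drops to 1.36 in WT and 1.76 in era1 at 2 mM, and the COR47 to ERD10 ratio is below 1 at 0 mM in both genotypes and at 10 mM in era1.

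KIN1 and COR6.6 are a tandem pair on chromosome 5 whose levels differ widely. Their transcripts share 1 run of 50 bases in the last 500, so a small part of their reads could be exchanged or lost. COR6.6 lay at 1385, 1346 and 1309 CPM in WT at 10 mM, 2158, 1807 and 2191 CPM at 2 mM and 1159, 1251 and 1260 CPM at 0 mM. In era1 it lay at 1224, 1195 and 1310 CPM, 1918, 1946 and 1859 CPM, and 761, 739 and 662 CPM. The era1 libraries at 0 mM were below all others, and era1 differed from WT there by -0.76 ± 0.07 (FDR = 2e-09), but by -0.12 ± 0.07 at 10 mM (FDR = 0.223) and -0.11 ± 0.07 at 2 mM (FDR = 0.314).

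The rise of COR6.6 from 10 to 2 mM was 0.61 ± 0.07 in WT and 0.62 ± 0.07 in era1. At 0 against 10 mM it fell in era1, by 0.79 on the log2 scale (-0.79 ± 0.07, FDR = 9.2e-10), where WT had -0.14 ± 0.07 (FDR = 0.0961). That difference was -0.65 ± 0.10 (FDR = 1.5e-05). With KIN1 and COR6.6 counts summed, the WT value was -0.17 ± 0.07 (FDR = 0.045), which passes.

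KIN1, a cold-induced gene, lay at 62.1, 45.8 and 40.8 CPM in WT at 10 mM, 50.7, 30.0 and 55.8 CPM at 2 mM and 22.9, 17.4 and 17.9 CPM at 0 mM. In era1 it lay at 68.1, 77.8 and 65.9 CPM, 78.6, 69.6 and 71.1 CPM, and 12.4, 8.19 and 9.31 CPM. Libraries at 10 and 2 mM overlap in WT and in era1, and those at 0 mM lie below both. The fall from 10 to 0 mM was -1.35 ± 0.19 in WT (FDR = 1.3e-06) and -2.83 ± 0.19 in era1 (FDR = 7.6e-12), a difference of -1.47 ± 0.28 (FDR = 0.00019). KIN1 was lower in era1 at 0 mM (-0.97 ± 0.23, FDR = 0.00103) and higher at 2 mM (0.69 ± 0.16, FDR = 0.00252). Its excess at 10 mM, 0.51 ± 0.16 (FDR = 0.0174), was lost without WT 10 mM replicate 2 or 3 or era1 10 mM replicate 2 (FDR 0.068 to 0.11).

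COR47 and ERD10, neighbouring acidic dehydrin genes on chromosome 1, both rose at 2 mM and parted at 0 mM. COR47 lay at 416, 362 and 370 CPM in WT at 10 mM, 926, 735 and 893 CPM at 2 mM and 268, 317 and 316 CPM at 0 mM. ERD10 lay at 265, 244 and 238 CPM, 619, 543 and 593 CPM, and 485, 516 and 516 CPM. At 0 mM ERD10 thus stayed near its 2 mM level, while COR47 lay below its 10 mM level. ERD10 was higher at 0 than at 10 mM by 1.02 ± 0.09 (FDR = 5.7e-10), and COR47 was lower (-0.35 ± 0.09, FDR = 0.00319).

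In era1 ERD10 lay at 340, 408 and 358 CPM at 10 mM, 760, 777 and 849 CPM at 2 mM and 330, 408 and 326 CPM at 0 mM. The era1 groups at 10 and 0 mM overlap, at -0.05 ± 0.08 (FDR = 0.612), and the difference from the WT response was -1.08 ± 0.12 (FDR = 2e-07). ERD10 was higher in era1 at 10 mM (0.57 ± 0.09, FDR = 2e-05) and at 2 mM (0.44 ± 0.08, FDR = 0.00028), and lower at 0 mM (-0.51 ± 0.08, FDR = 1.8e-05), with ranges apart at each dose. Between 0 and 2 mM in WT its call at -0.21 ± 0.08 (FDR = 0.0451) was not made by DESeq2 (adjusted p = 0.08), and 9 of the 18 fits that leave out 1 library lost it. These were without any WT 0 mM library, WT 10 mM replicate 2 or 3, WT 2 mM replicate 1 or 3, era1 0 mM replicate 1 or era1 2 mM replicate 2.

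COR47 in era1 lay at 327, 332 and 336 CPM at 10 mM, 916, 857 and 884 CPM at 2 mM and 214, 275 and 211 CPM at 0 mM. It rose from 10 to 2 mM by 1.15 ± 0.09 in WT and 1.42 ± 0.09 in era1. Genotypes overlapped at 0 mM yet differed by -0.36 ± 0.10 (FDR = 0.00273) and did not pass at 10 mM, at -0.21 ± 0.09 (FDR = 0.0999). There were 1.54 ± 0.0444 COR47 counts per ERD10 count at 10 mM in WT, 1.45 ± 0.0847 at 2 mM and 0.593 ± 0.0344 at 0 mM (SD, n = 3 each). In era1 the ratios were 0.905 ± 0.0799, 1.12 ± 0.0826 and 0.656 ± 0.0151. The genotypes were thus apart at all 3 doses, with era1 lower at 10 and 2 mM and higher at 0 mM.

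LTI30, a basic dehydrin that binds membranes, had the largest rise at 2 mM in WT and the second largest in era1. It lay at 28.4, 22.9 and 19.6 CPM in WT at 10 mM, 106, 79.2 and 120 CPM at 2 mM and 14.0, 11.4 and 13.9 CPM at 0 mM. In era1 it lay at 31.7, 48.5 and 28.2 CPM, 163, 115 and 101 CPM, and 14.4, 33.9 and 11.8 CPM. The 2 mM libraries are apart from the rest, and the genotypes overlap at 10, 2 and 0 mM. The rise from 10 to 2 mM was 2.11 ± 0.26 in WT (FDR = 1.6e-07) and 1.80 ± 0.23 in era1 (FDR = 4.5e-07).

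The fall of LTI30 at 0 against 10 mM was -0.85 ± 0.33 in WT (FDR = 0.0297) and -0.85 ± 0.27 in era1 (FDR = 0.0111). The WT call was lost in DESeq2 (adjusted p = 0.053) and without any WT 0 mM library or WT 10 mM replicate 1 or 2 (FDR 0.055 to 0.13). The era1 call was lost without era1 0 mM replicate 1 or 3 or era1 10 mM replicate 2, and the value was -1.47 without era1 0 mM replicate 2, the library at 33.9 CPM. At 10 mM era1 and WT differed by 0.61 ± 0.28 (FDR = 0.0996).

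Replicate 2 of era1 stood apart in several of these genes. At 0 mM it held the highest level of 7 of the 10 genes, and at 10 mM of 6. It was also highest for 8 of 10 other drought and abscisic acid output genes at 0 mM and 7 of 10 at 10 mM. For clock genes it was highest for 2 and 5 of 10. For other dehydrin and LEA genes it was 5 and 6 of 7 tested, and for other cold-regulated targets 6 and 4 of 9. For CBF pathway and cold signalling genes it was 4 and 5 of 15, and for abscisic acid core genes 2 and 4 of 7 tested. The share over all genes was not determined. A comparison without replicate 2 of era1 at 0 and 10 mM was added after the levels were seen. In it 9 of 10 genes still fell in era1 at 0 against 10 mM. There 9 were also lower in era1 than in WT at 0 mM, RD29A with them. In WT at 10 mM, replicate 1 was highest for all 10 genes, by a median of 1.15 times the lowest library.

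Most genes listed under CBF pathway and cold signalling also rose at 2 mM in era1. Of 15 genes of the CBF pathway and cold signalling, 7 rose and 1 fell at 2 against 10 mM in WT (28.8% and 28.3% of all genes), and 11 rose and 1 fell in era1 (25.5% and 26.5%), with medians of 0.48 and 2.27. CBF1, a factor that binds the C-repeat, lay at 4.74 ± 0.426 CPM at 10 mM in WT, 18.7 ± 2.3 at 2 mM and 3.13 ± 1.73 at 0 mM, while era1 had 3.37 ± 0.659, 32.7 ± 4.02 and 1.56 ± 1.25 CPM (SD, n = 3 each). CBF3 rose by 3.55 ± 0.26 in WT and 3.07 ± 0.24 in era1, whereas CBF2 had 0.34 ± 0.18 in WT (FDR = 0.103) and rose by 1.39 ± 0.17 in era1. DREB2A, a drought and heat factor of the same family, reached 74.2 ± 3.71 CPM in era1 at 2 mM against 17.1 ± 3.50 CPM in WT.

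The response at 2 against 10 mM was higher in era1 for 10 of the 15 genes by the interaction test, against 7.7% of all genes. Among the 10 dehydrin and COR genes this test passed for COR15A and COR15B. The comparison of the lists themselves was not tested. Of 9 other cold-regulated target genes, 8 rose at 2 against 10 mM in each genotype, beside the same shares of all genes (28.8% in WT, 25.5% in era1). COR413-PM1, a membrane protein gene, rose by 1.47 ± 0.08 in WT and by 1.13 ± 0.08 in era1. At 0 against 2 mM, 8 of the 9 fell in WT (22.1% of all genes) and 7 in era1 (26%).

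**Figure D5:**
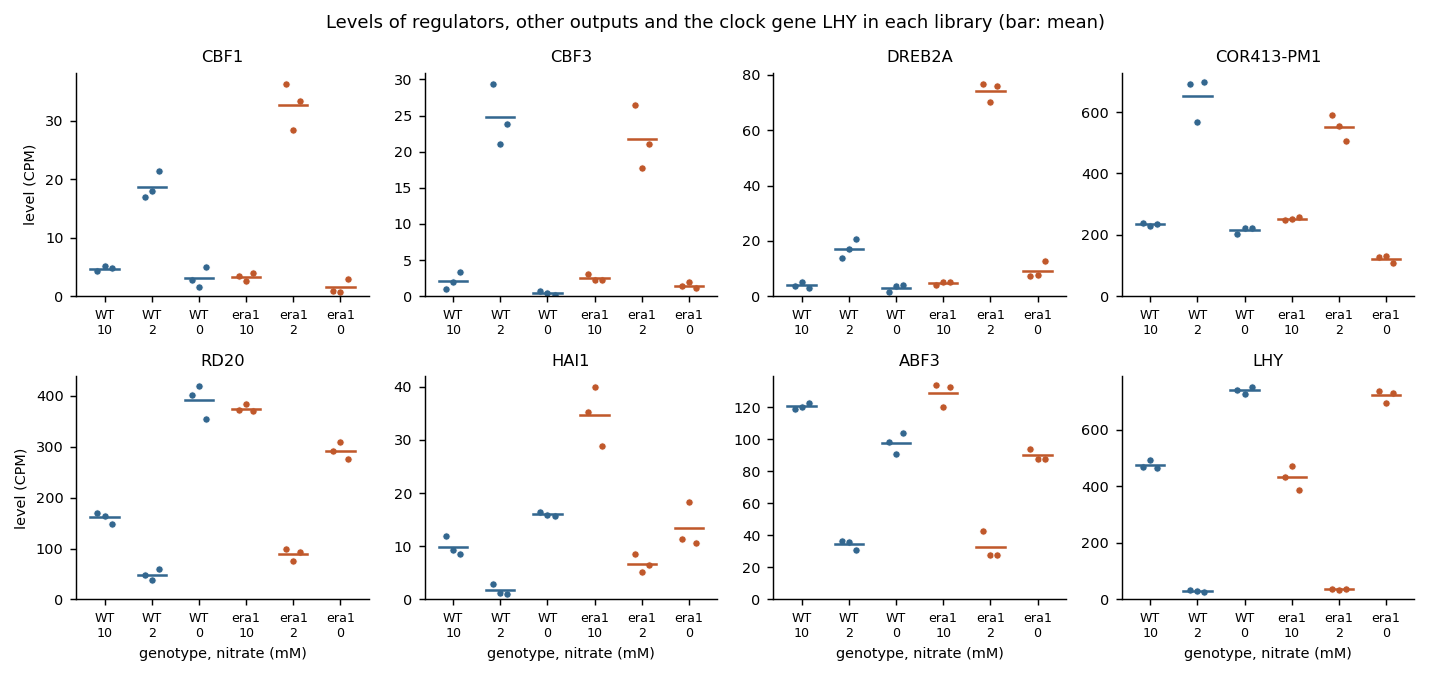
Levels (CPM) of CBF1, CBF3, DREB2A, COR413-PM1, RD20, HAI1, ABF3 and LHY in each library of WT (blue) and era1 (orange) at 10, 2 and 0 mM nitrate; bars are means of 3. CBF1, CBF3, DREB2A and COR413-PM1 in the upper row peak at 2 mM, where RD20, HAI1, ABF3 and LHY have their lowest means in each genotype.

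The list of other drought and abscisic acid output genes was mixed at 2 mM. Of 10 other drought and abscisic acid output genes, 4 rose and 5 fell at 2 against 10 mM in WT (28.8% and 28.3% of all genes), and 3 rose and 5 fell in era1 (25.5% and 26.5%). ERD4, ERD1 and RD22, drought-responsive genes, rose in both genotypes, by 1.07 ± 0.08, 0.64 ± 0.10 and 0.92 ± 0.11 in WT and by 1.04 ± 0.08, 0.80 ± 0.10 and 0.33 ± 0.11 in era1. RD20, a caleosin gene, fell by 1.73 in WT and by 2.06 in era1 on the log2 scale (-1.73 ± 0.12, -2.06 ± 0.11), and HAI1, a clade A phosphatase gene, by 2.52 and 2.36 (-2.52 ± 0.35, -2.36 ± 0.20). At 0 against 10 mM, 6 of the 10 rose and 2 fell in WT (26.9% and 26.7% of all genes), and 2 rose and 6 fell in era1 (27.5% and 28%).

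For 7 of these 10 output genes the response at 0 against 10 mM was lower in era1 by the interaction test (19.3% of all genes), and for 1 higher (15.6%). The NAC factor gene RD26 had the lowest value, -2.26 ± 0.17 (FDR = 4.5e-10), followed by HAI1 at -2.06 ± 0.28 (FDR = 3.2e-06) and P5CS1, of proline synthesis, at -1.76 ± 0.17 (FDR = 2.2e-08). LTI65, RAB18, KIN1 and ERD10 had values of -5.63, -1.50, -1.47 and -1.08 in that test. At 10 mM, 6 of the 10 output genes were higher in era1 (15.4% of all genes) and 1 lower (14.3%), and at 0 mM 2 were higher (24.5%) and 6 lower (24.6%).

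Of the factors and kinases of the abscisic acid core, 7 of 10 were tested, since ABI3, ABI4 and ABI5 did not pass the filter. At 2 against 10 mM 4 rose and 2 fell in WT, and 3 rose and 2 fell in era1, beside 28.8% and 28.3% of all genes in WT and 25.5% and 26.5% in era1. SNRK2.2, a kinase gene, rose by 2.77 ± 0.13 and 2.01 ± 0.11. The ABRE-binding factors went in both directions: ABF1 rose by 2.83 ± 0.17 in WT and 3.10 ± 0.16 in era1, while ABF3 had -1.81 ± 0.12 and -1.97 ± 0.11 and ABF2 -0.71 ± 0.11 and -1.10 ± 0.11. At 0 mM, 5 of the 7 were higher in era1 than in WT (24.5% of all genes) and 0 lower (24.6%), unlike most of the 10 dehydrin and COR genes. The response at 0 against 10 mM was higher in era1 for 2 (15.6%), ABF1 (1.91 ± 0.37) and ABF4 (0.99 ± 0.16), and lower for 0 (19.3%).

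Other dehydrin and LEA genes were mixed. Of 10, 7 were tested, and at 2 against 10 mM 3 rose and 1 fell in WT (28.8% and 28.3% of all genes), and 4 rose and 1 fell in era1 (25.5% and 26.5%). ERD14, another acidic dehydrin, rose at 0 against 10 mM in WT by 0.66 ± 0.09 and had 0.02 ± 0.08 in era1 (FDR = 0.878), from 405 ± 20.1 to 640 ± 71.1 CPM and from 555 ± 23.6 to 561 ± 57.1 CPM (SD, n = 3 each). HIRD11, a histidine-rich dehydrin, rose at 2 mM by 0.98 and 0.87. LEA4-5 lay at 1.67 ± 0.194 CPM in WT at 10 mM and 8.06 ± 2.65 at 0 mM, against 6.13 ± 4.01 and 2.95 ± 1.22 CPM in era1. SAG21 had -1.43 ± 0.15 at 2 against 10 mM in WT. At 0 mM it was the 1 gene of the 7 higher in era1 (1.44 ± 0.16, FDR = 5.9e-08, 24.5% of all genes), and 3 were lower (24.6%). By interaction at 0 against 10 mM it was the 1 higher (1.49 ± 0.21, FDR = 7e-06, 15.6%), and 4 were lower (19.3%).

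The clock genes changed widely between the 2 mM libraries and the others. At 2 against 10 mM, 6 of 10 clock genes rose and 3 fell in each genotype, against 28.8% and 28.3% of all genes in WT and 25.5% and 26.5% in era1. The morning gene LHY had log2 fold changes of -4.02 in WT and -3.59 in era1, and CCA1 of -2.73 and -2.79. The evening gene TOC1 rose by 1.72 and 2.15. PRR5 went from 0.0694 ± 0.12 to 12.9 ± 2.67 CPM in WT and from 0.0588 ± 0.102 to 7.21 ± 1.19 CPM in era1. In era1 against WT at 2 mM, 1 of 10 clock genes was higher (10.9% of all genes) and 2 lower (11.1%). At 10 mM 1 was higher (15.4%) and 1 lower (14.3%). The genotypes also differed at 0 mM, where 6 were higher in era1 (24.5%) and 1, LUX, lower (24.6%). At 0 against 10 mM, 5 rose and 3 fell in WT (26.9% and 26.7%), and 5 rose and 1 fell in era1 (27.5% and 28%). The time of harvest is not given in the labels.

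The pattern of each gene over the 18 libraries was compared with that of all other genes with a mean of at least 5 CPM, by the root mean square difference of centred log2 CPM. COR6.6, COR47 and ERD10 had the smallest differences from their nearest genes, a measure that tends to be larger for genes that vary more. COR6.6 was nearest to AT5G43830, at 0.132, followed by LHB1B2 and LHCA3, at 0.138 each. COR47 was nearest to PATL1, at 0.181, and ERD10 to AIRP2, at 0.175. The standard deviations of the 3 genes themselves were 0.499, 0.747 and 0.552. COR15B lay at 0.312 from its nearest gene, AT3G10020, against its own 1.55. LTI65 had no close match: its nearest were AT2G37870 at 0.992, VSP1 at 1.03 and CER1 at 1.05, against its own 1.69. Among the 10 genes LTI65 was nearest to RAB18, at 1.18, and LTI30 to RD29A, at 0.522, which is a description over libraries that share depth and groups.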

How the data were processed

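What the authors deposited was 1 list of raw gene counts for each library, in the layout of HTSeq. Per the labels' protocols, polyA RNA from 100 mg of rosette was sequenced as single-end, stranded QuantSeq 3' libraries. Per the submitters' processing notes, TopHat2 and the TAIR10 build were used; the counter, its strand setting and versions were not given in the labels or notes. The 5 summary counters at the end of each list were left out, with reads without a unique alignment at 1.89% to 5.33% of all reads counted there.

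Counts of 18 libraries were tested in 1 model of the 6 groups with edgeR 4.0.16 (R 4.3.3, limma 3.58.1; quasi-likelihood test, TMM scaling, filterByExpr at a minimum count of 10 and total of 15), and p-values were adjusted by Benjamini-Hochberg over 18358 genes. The prior count of log2 CPM was 2. The script was tested on simulated data. The 10 genes and the 6 lists (64 genes, 58 tested) were chosen with earlier results of these data known. From each list the rule named up to 3 tested genes per direction and contrast by size of change, plus fixed regulators. The text prints a selection of these, chosen after their values were seen, and AT2G42520 was added for its overlap with COR15B. For likeness, the 3 nearest genes with a mean of at least 5 CPM were taken. Alternatives were RLE size factors, no filter, DESeq2 1.42.0, the compared groups alone, no 2 mM libraries, KIN1 and COR6.6 summed, a replicate block, and each library left out. After the levels were seen, leaving out era1 replicate 2 and a longer promoter window were added. Libraries held 4748044 to 6306900 counts, and replicates of a group differed by 1.5 to 4.44 times the sampling variance. This is more than sampling of reads alone gives, but it cannot tell separate plants from repeated preparations of the same RNA. Promoters were read from the TAIR10.1 RefSeq genome.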

Additional observations from a re-analysis of the deposited data

Results flagged for a closer look

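The results below were singled out because the response to nitrate differed between era1 and WT by the interaction test of edgeR (FDR under 0.05, over all genes). Values are the era1 response minus the WT response on the log2 scale. At 0 against 10 mM the differences were -5.63 for LTI65, -1.50 for RAB18, -1.47 for KIN1, -1.08 for ERD10, -0.72 for RD29A and -0.65 for COR6.6, each lower in era1. COR15B had 0.50, since it fell less in era1, and this call was lost without WT 0 mM replicate 2, WT 10 mM replicate 1, era1 0 mM replicate 2 (0.33) or era1 10 mM replicate 2 (FDR 0.05 to 0.14).

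At 2 against 10 mM the differences were 1.39 for COR15A and 0.96 for COR15B. At 0 against 2 mM they were -4.06 for LTI65, -1.65 for KIN1, -1.37 for COR15A, -0.95 for ERD10, -0.66 for COR6.6, -0.55 for RD29A, -0.45 for COR15B and -0.42 for COR47. Of these, RD29A was lost without any of 7 libraries (WT 0 mM replicate 2 or 3, WT 2 mM replicate 2, era1 0 mM replicate 1 or 3, era1 2 mM replicate 1 or 2; FDR 0.052 to 0.12). COR47 was lost without WT 0 mM replicate 2, WT 2 mM replicate 2 or era1 0 mM replicate 1 or 3 (FDR 0.052 to 0.067). COR15B was lost without any of 9 libraries (any WT 0 mM library, WT 2 mM replicate 2 or 3, era1 0 mM replicate 1 or 3, era1 2 mM replicate 2 or 3; FDR 0.053 to 0.19). The 2 comparisons at 0 mM share their era1 and WT 0 mM libraries. LTI65 rests on 1, 29 and 3 counts in era1 at 0 mM.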

How the results depend on the processing

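Over 94 called values of the 10 genes and all alternatives, 0 changed direction, and 2279 of 2363 alternative values kept their call. Leaving out 1 library gave 68 of the 84 lost calls, and DESeq2 gave 7. Genes counted as higher at 0 against 10 mM in WT went from 1 to 2, and at 0 against 2 mM from 0 to 1, with no filter, with the compared groups alone and without era1 replicate 2 at 0 and 10 mM. Genes lower in era1 at 2 against 10 mM went from 2 to 0 in DESeq2 and to 1 without era1 replicate 2 at 10 mM. With no filter, genes higher in era1 went from 0 to 1 at 0 mM and from 3 to 5 over the mean of doses (1 without era1 replicate 2), and genes lower by interaction at 2 against 10 mM from 0 to 2. Genes higher by interaction at 0 against 10 mM went from 1 to 0 without era1 replicate 2. The causes were not tested.

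With 1 library left out, genes higher ranged from 1 to 2 (WT, 0 against 10 mM), 0 to 1 (WT, 0 against 2 mM), 2 to 4 (era1 against WT, 2 mM), 0 to 1 (era1 against WT, 0 mM) and 0 to 1 (interaction, 0 against 10 mM). Genes lower ranged from 1 to 2 (era1, 2 against 10 mM), 0 to 1 (era1 against WT, 2 mM), 0 to 1 (interaction, 2 against 10 mM) and 5 to 9 (interaction, 0 against 2 mM). Of 36 uncalled values, 18 changed sign somewhere and 15 were called somewhere, 0 with the other sign. Among uncalled values, ERD10 in era1 at 0 against 10 mM (-0.05) ranged from -0.17 to 0.03, and COR15A in era1 against WT at 2 mM (0.09) from just below zero, which rounds to 0.00, to 0.21. Both changed sign. The ABRE core count went from 6 to 3 with ACGTGTC or ACGTGGC, and to 10 in 1000 bases before the start codon, where the C-repeat/DRE core went from 4 to 10.

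With a replicate block the counts stayed within 1.5 times, as with 9 lower and 0 higher at 0 against 10 mM in era1, and 1 call was lost (COR15B, interaction at 0 against 2 mM, -0.45, FDR = 0.05). Over all tested genes, same-numbered libraries hardly deviated together: correlations ranged from -0.0686 to 0.141, with 1 of 27 over 0.1. This was not determined for the 10 genes alone, of which era1 replicate 2 was highest for 7 at 0 mM, 6 at 10 mM and 3 at 2 mM. Counts of 1, 29 and 3 limit LTI65 in era1 at 0 mM.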
